A study of Mus musculus with 10 samples.

Results

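The genes described here are 5 members of the mouse Ms4a family, Ms4a4c, Ms4a6b, Ms4a6c, Ms4a6d and Ms4a7, out of 19938 genes measured under a single symbol on whole-transcript arrays. They were taken by name from a list chosen by someone who knew earlier results of these arrays, the difference between the arms included. Probe sets were selected on the highest mean level, but each gene is measured by 1 probe set, so that step had nothing to choose. Marrow cells from the long bones of male Swiss mice aged 4 to 6 weeks were cultured in medium with calcitriol, the hormone made from vitamin D, in both arms, and received either recombinant mouse adiponectin, a hormone of fat cells, at 5 µg/ml or vehicle. One arm is called adiponectin and the other control below; each has 1 array at each of 4, 10, 24, 72 and 120 h, 10 arrays in all. Lipopolysaccharide, a bacterial endotoxin, is named as a contaminant in the title, so the hormone and what came with it cannot be told apart in these arms. Whether each culture had its own animals is not stated, so the spread among cultures may be technical. With 1 array per arm and time, no p-value measures spread among replicate cultures. For the difference between the arms, p-values and the SD over 5 pairs rest on how that difference varied across the 5 times. Such spread includes any change of the difference with time.

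The membrane-spanning 4A proteins cross the cell membrane several times and lie in or beside receptor complexes. The founding members are CD20 of B cells (Ms4a1), the beta chain of the high-affinity IgE receptor of mast cells (Ms4a2) and a protein of granulocyte and monocyte precursors (Ms4a3), while the Ms4a4, Ms4a6 and Ms4a7 genes are known mainly from monocytes and macrophages, with Ms4a4b best known from T cells. The Ms4a genes form a cluster on mouse chromosome 19, in which the RefSeq annotation gives the order Ms4a7, Ms4a4a, Ms4a4c, Ms4a4b, Ms4a6c, Ms4a6b, Ms4a4d and Ms4a6d.

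Neighbouring Ms4a genes resemble each other also in the sequence in front of them, which is shown here because these paired genes had mean differences between the arms of unlike size, given further on. RefSeq (GRCm38.p6) gave a window of 250 bases before to 50 bases after the start for 4 of the 5 members (Ms4a7 has 2 windows, Ms4a6d is not used here). Capitals mark runs of at least 12 bases that also stand, on the same strand, in the window of the gene's partner. The first pair is Ms4a6b (chr19:11518309-11518608, plus strand) with Ms4a6c (chr19:11469118-11469417, plus strand), which share 86 of 300 bases in such runs, the longest of 48 bases.
Ms4a6b: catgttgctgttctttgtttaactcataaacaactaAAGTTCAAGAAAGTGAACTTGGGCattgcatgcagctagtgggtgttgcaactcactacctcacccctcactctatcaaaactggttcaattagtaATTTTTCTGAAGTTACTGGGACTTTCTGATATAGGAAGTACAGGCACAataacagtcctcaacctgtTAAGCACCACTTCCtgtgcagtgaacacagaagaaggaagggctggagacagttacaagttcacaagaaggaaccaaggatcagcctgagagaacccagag
Ms4a6c: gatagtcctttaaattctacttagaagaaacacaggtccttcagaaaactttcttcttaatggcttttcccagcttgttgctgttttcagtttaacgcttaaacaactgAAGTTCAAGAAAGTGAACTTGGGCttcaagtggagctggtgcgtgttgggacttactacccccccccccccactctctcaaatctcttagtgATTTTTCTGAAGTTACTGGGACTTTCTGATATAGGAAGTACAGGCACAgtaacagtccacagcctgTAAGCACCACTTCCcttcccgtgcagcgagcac
The second pair is Ms4a4c (chr19:11407411-11407710, plus strand) with its neighbour Ms4a4b (chr19:11443308-11443607, plus strand), which is not among the 5 genes; they share 131 of 300 bases in such runs.
Ms4a4c: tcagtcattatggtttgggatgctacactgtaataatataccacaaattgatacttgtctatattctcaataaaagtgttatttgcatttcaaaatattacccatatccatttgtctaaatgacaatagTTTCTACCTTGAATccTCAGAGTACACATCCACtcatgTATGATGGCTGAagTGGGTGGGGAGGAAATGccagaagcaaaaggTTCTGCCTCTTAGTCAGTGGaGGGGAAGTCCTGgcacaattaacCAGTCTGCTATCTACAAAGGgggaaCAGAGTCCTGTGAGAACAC
Ms4a4b: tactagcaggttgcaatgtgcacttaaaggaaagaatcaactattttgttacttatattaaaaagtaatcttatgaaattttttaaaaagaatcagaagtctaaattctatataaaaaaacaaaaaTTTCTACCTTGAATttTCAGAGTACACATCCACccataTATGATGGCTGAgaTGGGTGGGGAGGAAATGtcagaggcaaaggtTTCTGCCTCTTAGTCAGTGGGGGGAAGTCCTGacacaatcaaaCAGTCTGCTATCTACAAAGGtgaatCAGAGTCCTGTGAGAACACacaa
No other pair among the 14 pairs of windows of these genes and Ms4a7 shared a run of that length. Of the motifs searched on both strands, the core of the interferon-stimulated response element (its pair of GAAA repeats, searched with a fixed spacer) and TTCNNNGAA, a STAT site, stood in 0 of the windows of the 4 members, against 3.44% and 8.30% of all 32851 windows in the table. GAGGAA, a core of sites for the myeloid factor PU.1, stood in Ms4a4c, 61 bases before the start, in Ms4a4b, 64 bases before it and in the run shared with Ms4a4c, and in the first window of Ms4a7 (28.3% of all windows). TGANTCA, an AP-1 site, stood in the second window of Ms4a7 and in Ms4a4b after the start (7.81%). A search added after the windows had been seen, for GAAAGTGAA, found it in the capitals of Ms4a6b, 206 bases before the start, and of Ms4a6c, 133 bases before it; 0.581% of all windows hold it. A match is a stretch of letters and not a shown site. GAAAGTGAA is the searched response element core without its last base, and in both windows the base that follows is C in place of A.

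All 5 genes were higher in the adiponectin culture than in the control culture of the same time, at each of the 5 times. The sizes differed widely between them: 4.87-fold on average for Ms4a4c, 2.10-fold for Ms4a6b, 1.42-fold for Ms4a6d, 1.29-fold for Ms4a6c and 1.23-fold for Ms4a7. In the limma fit over all genes with the time point as a block, all 5 were called higher at an adjusted p under 0.05 and 0 lower. Of all genes, 2.05% were called higher and 0.371% lower. Of all genes, 6.32% were higher in 5 of 5 pairs. Because the genes were listed with this contrast known, these counts are a description and nothing is read from them. Levels below are log2 values, 1 array each, and a difference of 1 is a doubling. In cultures of mixed cells, more cells of a type and more RNA per cell cannot be told apart.

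Ms4a4c, a gene of monocytes that is also known as inducible by interferon in mice, showed the widest gap. Its level in adiponectin cultures was 12.29, 13.28, 13.30, 12.89 and 12.40 at 4, 10, 24, 72 and 120 h, against 11.02, 11.26, 11.40, 10.48 and 8.59 in control cultures. Every adiponectin array thus lay above every control array, and the 120 h control was the lowest array by a wide margin. The difference, adiponectin minus control, was 1.27 at 4 h, 2.01 at 10 h, 1.90 at 24 h, 2.41 at 72 h and 3.82 at 120 h. The last value is 14.1-fold. From 4 to 120 h the adiponectin level was higher by 0.12, while the control level dropped by 2.43. The mean difference was 2.28 ± 0.95 (SD, n = 5 pairs; 95% interval 1.69 to 2.88; limma adjusted p = 0.000722; higher in 5 of 5 pairs). Without the 120 h pair it was 1.90 and still called, as it was with any other pair left out.

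Ms4a6b, Ms4a6c and Ms4a6d are closely related genes of monocytes and macrophages. Ms4a6b stood at 10.90, 11.83, 12.34, 12.21 and 12.08 in adiponectin cultures from 4 to 120 h, against 10.64, 10.61, 11.00, 10.85 and 10.91 in control cultures. The control arrays stayed within 0.39 of each other, and the adiponectin arm left that band after 4 h; the 4 h adiponectin array alone lay inside it. The difference was 0.26 at 4 h and then 1.22, 1.33, 1.37 and 1.17, with a mean of 1.07 ± 0.46 (SD, n = 5 pairs; 95% interval 0.76 to 1.38; limma adjusted p = 0.00170; higher in 5 of 5 pairs). The call held with any 1 pair left out.

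Ms4a6d stood at 12.97, 13.47, 13.58, 13.40 and 13.28 in adiponectin cultures, against 12.75, 12.72, 12.75, 12.97 and 12.96 in control cultures. The arms did not overlap, though only just: the lowest adiponectin array, at 4 h, read 12.968 and the highest control array, at 72 h, 12.966. Ms4a4c and Ms4a6d were the 2 of 5 genes with no overlap, where 1.53% of all genes had every adiponectin array above every control array. The Ms4a6d difference was largest at 10 and 24 h (0.76 and 0.83) and smaller at 4, 72 and 120 h (0.22, 0.43 and 0.32), with a mean of 0.51 ± 0.27 (SD, n = 5 pairs; 95% interval 0.29 to 0.73; limma adjusted p = 0.0210; higher in 5 of 5 pairs). Its call was lost without the 10 h pair (adjusted p = 0.0870) or the 24 h pair (adjusted p = 0.104).

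Ms4a6c stood at 12.92, 13.41, 13.20, 13.34 and 13.21 in adiponectin cultures, against 12.73, 12.84, 12.79, 12.98 and 12.88 in control cultures. Here only the 4 h adiponectin array fell within the range of the control arrays. The difference was 0.19 at 4 h, 0.57 at 10 h, 0.41 at 24 h, 0.36 at 72 h and 0.33 at 120 h, with a mean of 0.37 ± 0.14 (SD, n = 5 pairs; 95% interval 0.20 to 0.54; limma adjusted p = 0.0284; higher in 5 of 5 pairs). The call held only without the 4 h pair and was lost without any other, with an adjusted p of up to 0.118. Ms4a6b and Ms4a6c, which share the 48-base run in front of their starts, thus had mean differences of 1.07 ± 0.46 and 0.37 ± 0.14 (SD, n = 5 pairs). At 4 h their differences were 0.26 and 0.19. The difference between the genes was not tested.

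Ms4a7, which in human tissue marks macrophages, had the smallest and the steadiest difference. Its level was 11.67, 12.02, 12.12, 12.43 and 12.57 in adiponectin cultures, against 11.42, 11.74, 11.87, 12.05 and 12.23 in control cultures. Both arms climbed with time and their ranges overlapped broadly. The difference of 0.25, 0.27, 0.26, 0.38 and 0.34 from 4 to 120 h gave a mean of 0.30 ± 0.06 (SD, n = 5 pairs; 95% interval 0.15 to 0.45; limma adjusted p = 0.0498; higher in 5 of 5 pairs). The call lay at the threshold and was lost with any 1 pair left out, with an adjusted p between 0.0899 and 0.252.

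**Figure D1:**
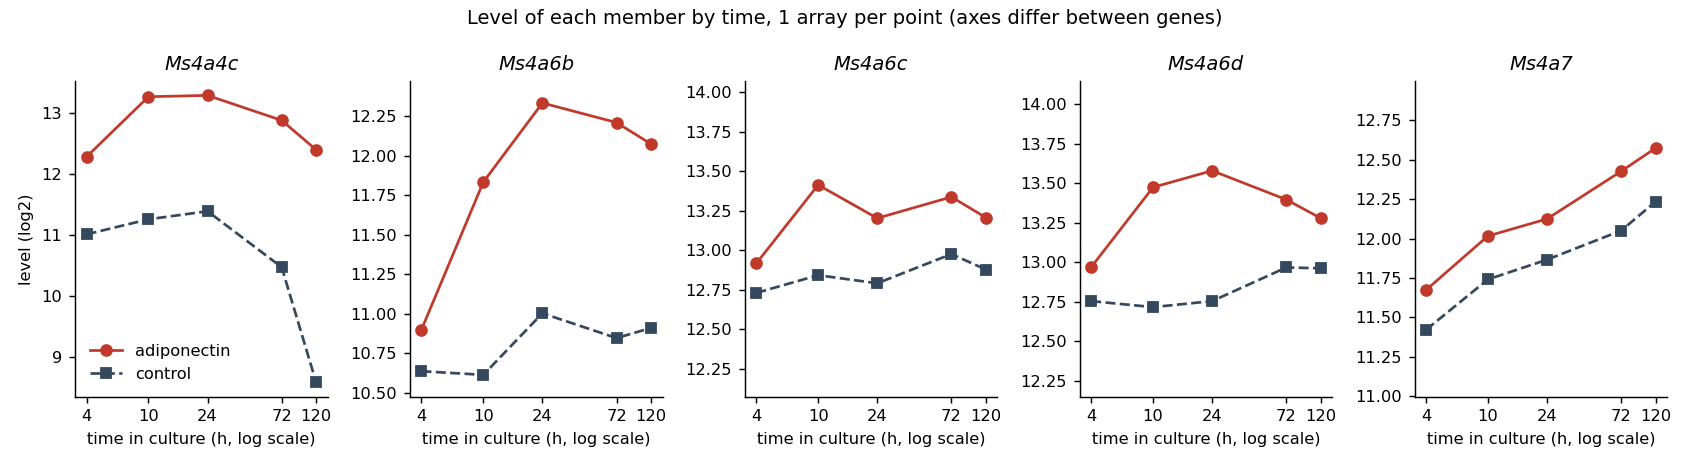
Log2 level of Ms4a4c, Ms4a6b, Ms4a6c, Ms4a6d and Ms4a7 (1 panel each, vertical axes differ) against time in culture on a log axis, with 1 array per point, adiponectin as red circles and control as dark squares. Red lies above dark at every time, the Ms4a4c control drops to 8.59 at 120 h, and both Ms4a7 lines climb.

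At single times there is 1 array per arm and no test, and genes were counted at a difference of at least 1.5-fold. At 4 h only Ms4a4c of the 5 genes reached that size (1.84% of all genes did). At 10 h and at 24 h the count was 3, Ms4a4c, Ms4a6b and Ms4a6d (3.41% and 2.35% of all genes), and at 72 h and at 120 h it was 2, Ms4a4c and Ms4a6b (1.40% and 1.77%). At each of the 5 times 0 of the 5 genes were 1.5-fold lower, where 1.56%, 0.883%, 1.98%, 0.863% and 0.361% of all genes were. The median difference of the 5 genes was 0.25, 0.76, 0.83, 0.43 and 0.34 from 4 to 120 h, beside 0.04, 0.07, 0.01, -0.01 and -0.03 over all genes.

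**Figure D2:**
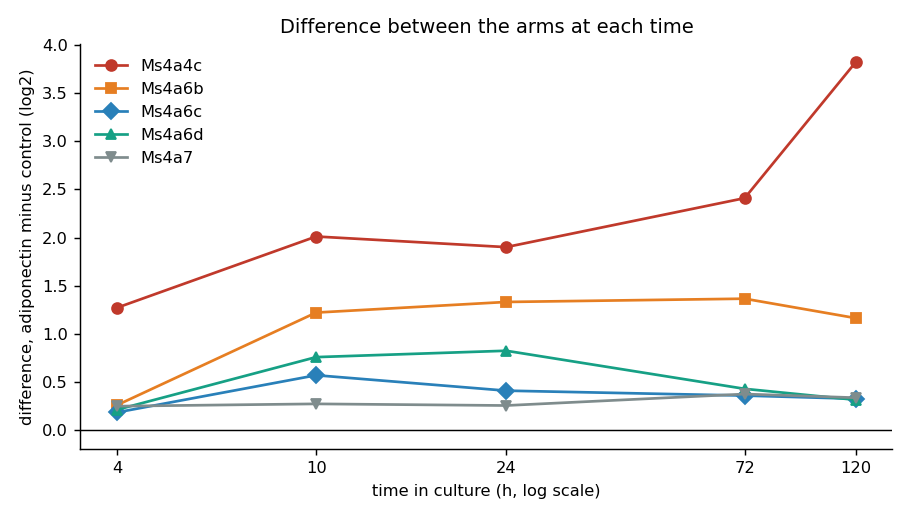
Difference in log2 level, adiponectin minus control, against time in culture on a log axis, with 1 line per gene and 1 pair of arrays per point. Ms4a4c goes up to 3.82 at 120 h, Ms4a6b stays between 1.17 and 1.37 after 4 h, Ms4a6d is highest at 24 h (0.83), and Ms4a7 keeps between 0.25 and 0.38.

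Whether the difference itself ran with time was tested by a treatment by log2 hours term. For Ms4a4c the term was 0.42 log2 units per doubling of time (95% interval 0.23 to 0.60; unadjusted p = 0.000766), which did not pass over all genes (limma adjusted p = 0.436). Without the 120 h pair it was 0.24 (adjusted p = 1.0), and with any other pair left out it lay between 0.42 and 0.49. For Ms4a6b the term was 0.16 (0.01 to 0.31; limma adjusted p = 0.501), and -0.004 without the 4 h pair. For Ms4a6c, Ms4a6d and Ms4a7 it was 0.01, -0.01 and 0.02, with intervals that lay between -0.14 and 0.12. In this limma fit 0 of 19938 genes passed in either direction (0.0%), while 9.83% had an unadjusted p under 0.05, and with an intensity trend and robust prior 2 genes passed with a positive term and 3 with a negative one. The fit leaves 3 residual degrees of freedom.

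The course in each arm was fitted as a slope on log2 hours. Both arms share 1 estimate of the spread, so a gene's interval is equally wide in each and does not show the scatter of its own arm. Ms4a7 was the 1 of 5 genes called in either arm: it rose by 0.17 per doubling of time in adiponectin cultures (95% interval 0.12 to 0.23; limma adjusted p = 0.00434) and by 0.15 in control cultures (0.10 to 0.20; limma adjusted p = 0.00781). Of all genes, 4.15% rose and 3.46% fell in the adiponectin arm and 4.64% rose and 4.45% fell in the control arm (925 and 888 genes, but 738 and 1559 once array medians were set equal). Both Ms4a7 calls were lost without the 72 h pair (adjusted p = 0.0588 in adiponectin and 0.0748 in control) or the 120 h pair (0.0990 and 0.181). Ms4a6b had slopes of 0.22 in adiponectin (0.08 to 0.36; limma adjusted p = 0.0641) and 0.06 in control (-0.08 to 0.20; limma adjusted p = 0.562). Without the 4 h pair the adiponectin slope was 0.05 (adjusted p = 0.784). Its adiponectin levels changed mostly between 4 and 24 h, which a straight line describes poorly.

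Ms4a4c had a slope near 0 in adiponectin cultures (0.00; 95% interval -0.33 to 0.32; limma adjusted p = 0.993) and one of -0.42 in control cultures (-0.74 to -0.10; limma adjusted p = 0.0997). Its control levels were close together up to 24 h and lower at 72 and 120 h, and the slope depended on which time was left out: -0.68 without 4 h (adjusted p = 0.0340) and -0.12 without 120 h (adjusted p = 0.802). Ms4a6c had slopes of 0.04 in both arms and Ms4a6d of 0.05 in both, none of them called. Over the 5 genes the median slope was 0.05 in adiponectin and 0.05 in control, beside -0.01 and 0.02 over all genes.

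**Figure D3:**
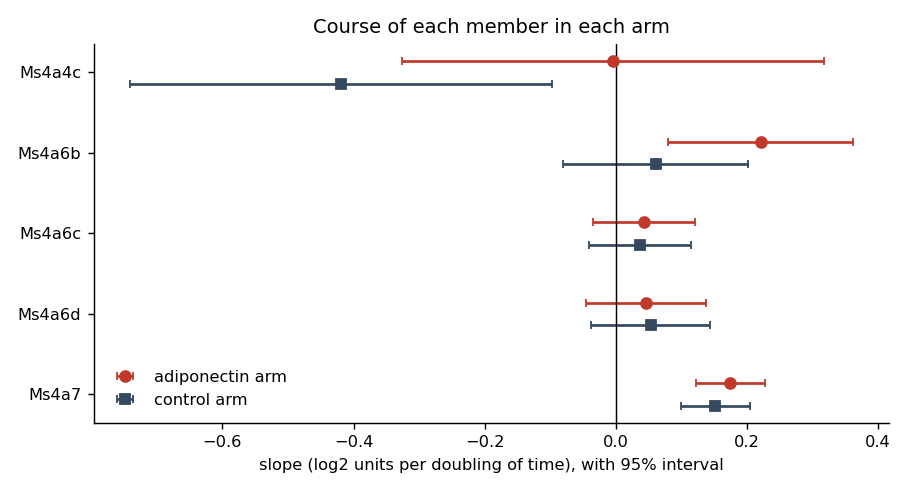
Slope of each gene in log2 units per doubling of time in the adiponectin arm (red circles) and the control arm (dark squares), with 95% intervals from the fit over all genes. Both Ms4a7 intervals lie above 0, and for Ms4a4c the adiponectin slope stands at 0.00, to the right of the control slope of -0.42.

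Of 15 other measured genes of the Ms4a family and the related Tmem176 genes, 2 rose with adiponectin and 0 fell, and their median difference was 0.01, beside 0.51 for the 5 genes and 0.01 for all genes. The 2 that rose are neighbours of the 5 genes. Ms4a4b read 6.46, 7.02, 7.75, 7.13 and 7.37 in adiponectin cultures, against 5.94, 5.60, 6.09, 6.09 and 5.80 in control cultures, with no overlap. Its mean level, 6.52, lay below the median level of all genes, 8.43, unlike the 5 genes, and whether it stood above background was not tested. Its mean difference was 1.24 ± 0.47 (SD, n = 5 pairs; limma adjusted p = 0.000669; higher in 5 of 5 pairs), and the difference was 0.52 at 4 h and 1.57 at 120 h. Ms4a4d read 7.78, 8.19, 9.60, 9.49 and 9.71 in adiponectin cultures, against 7.49, 7.33, 8.21, 8.41 and 8.43 in control cultures, with a mean difference of 0.98 ± 0.43 (n = 5 pairs; limma adjusted p = 0.00225; higher in 5 of 5 pairs) and overlapping arms. Both calls held with any 1 pair left out. Ms4a4d also rose with time in the adiponectin arm, by 0.41 per doubling (limma adjusted p = 0.00947), with 0.24 in control (limma adjusted p = 0.0645). As related genes can share probe matches, some of a paralogue's signal may belong to another, and how far that reaches was not tested.

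Ms4a4a, whose human counterpart is a protein of macrophages, differed by 0.41 ± 0.25, short of the threshold (limma adjusted p = 0.0562; higher in 5 of 5 pairs), with 0.47 at 4 h and 0.05 at 120 h. The founding genes of the family did not pass: Ms4a1 was at 0.24 ± 0.19 (limma adjusted p = 0.303), Ms4a2 at 0.01 ± 0.11 (0.984) and Ms4a3 at -0.27 ± 0.40 (0.525). Ms4a3 fell with time in both arms, by 0.61 per doubling in adiponectin and by 0.78 in control (limma adjusted p = 0.0153 and 0.00753), whereas Tmem176a and Tmem176b rose with time in adiponectin (slopes 0.19 and 0.16; limma adjusted p = 0.0388 and 0.0271). In control the slopes were 0.17 for Tmem176a (adjusted p = 0.0472) and 0.13 for Tmem176b (0.0502). Each of these calls of a course, and that of Ms4a4d, was lost without the 72 h pair and likewise without the 120 h pair, with an adjusted p of up to 0.528 for Tmem176a in adiponectin. The Tmem176a call was lost with any 1 of the 5 pairs left out in control and with 4 of 5 in adiponectin, the Tmem176b call and the adiponectin call of Ms4a3 also without 10 h, and that of Ms4a4d also without 4 h.

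**Figure D4:**
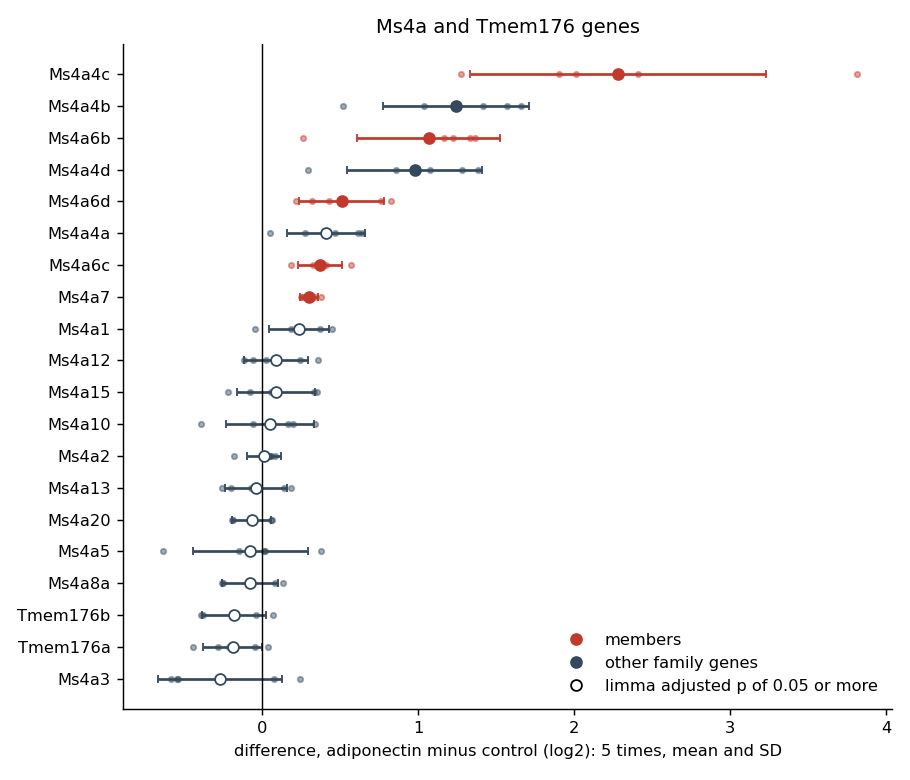
Difference in log2 level, adiponectin minus control, for the 5 genes (red) and 15 other Ms4a and Tmem176 genes (dark), ordered by mean, with the 5 single times as small dots, the mean as a circle and the SD over 5 pairs as a bar; open circles did not reach a limma adjusted p under 0.05. Ms4a4c lies farthest right at 2.28, and Ms4a4b (1.24) and Ms4a4d (0.98) stand either side of Ms4a6b. Open circles are those of Ms4a4a (0.41) and of the genes from Ms4a1 down.

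The genes whose levels followed each of the 5 most closely over the 10 arrays were sought among 9969 genes above the median level, with Pearson's r as the measure. The 10 arrays share the treatment and the time course, so a high r describes a like profile only. Ms4a4c was most like Cd72 (0.985), a lectin-like receptor of B cells, the Schlafen gene Slfn4 (0.983) and Dck, the deoxycytidine kinase (0.972). Slfn4, like Ms4a4c, had its arms far apart at 120 h, with a difference of 3.50. Ms4a6b was most like Bst2 (0.985), which encodes the antiviral tether tetherin, Ifi27l2a (0.977) and the phosphodiesterase gene Pde7b (0.974). Ms4a6c was most like Ms4a6d (0.933), Fyb (0.925) and the antiviral gene Oas2 (0.919). Ms4a6d was most like H2-M2 (0.962), Epsti1 (0.961) and Mov10 (0.953), and Ms4a7 like Bdkrb1 (0.968), Shfl (0.961) and the complement gene C2 (0.942). Among the 5 genes themselves r ran from 0.15 (Ms4a4c with Ms4a7) to 0.94 (Ms4a6b with Ms4a6d).

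Of 9 measured interferon-induced genes, 9 rose, with a median difference of 2.65, and of 10 genes induced by lipopolysaccharide, 7 rose, with a median of 0.93. The largest rises were those of the antiviral genes Ifit1 (2.88 at limma adjusted p = 4.36e-06), Ifit3 and Mx1 in the first list, and of Acod1, the enzyme that makes itaconate, the acute-phase gene Saa3 and the scavenger receptor gene Marco in the second. Ifit1 differed by 3.52 at 4 h and 2.92 at 120 h, against the 1.27 and 3.82 of Ms4a4c. Whether these courses differ was not tested. Among genes for partners of MS4A proteins and other myeloid receptors, 0 of 7 rose and 1 fell, the lectin gene Cd209a (-2.36 ± 0.54; limma adjusted p = 1.36e-05). Trem2, a lipid receptor of macrophages, was at -0.27 ± 0.39 (limma adjusted p = 0.515) and the costimulatory receptor gene Cd40 at 0.88 ± 0.82 (0.101). The Cd40 difference was 2.06, 1.23 and 0.90 at 4, 10 and 24 h, then 0.06 and 0.15 at 72 and 120 h. That of Trem2 was -0.40, -0.51 and -0.73 at 4, 10 and 24 h, then 0.19 and 0.08 at 72 and 120 h.

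The cultures expressed myeloid genes throughout, with Lyz2, Cd68, Csf1r and Adgre1 at mean levels of 14.11, 13.63, 13.14 and 13.16. The mean over 15 monocyte and macrophage markers lay between 12.09 and 12.30 in adiponectin arrays and between 11.95 and 12.18 in control arrays. Of these 15, 1 rose with adiponectin, the Fc receptor gene Fcgr1 (0.98 ± 0.48; limma adjusted p = 0.00363), 0 fell, and the median was -0.01. With time, 4 of the 15 rose and 1 fell in adiponectin, and 2 rose and 2 fell in control. The monocyte receptor gene Ccr2 had a slope of -0.38 per doubling in adiponectin cultures (limma adjusted p = 0.168) and fell by 0.55 per doubling in control cultures (limma adjusted p = 0.0468). The complement gene C1qa rose with time by 0.31 in adiponectin and by 0.21 in control (limma adjusted p = 0.00318 and 0.0101), and C1qc rose in both arms too. Cx3cr1, the fractalkine receptor gene of monocytes, rose by 0.30 in adiponectin (limma adjusted p = 0.0233) and had a slope of 0.04 in control (0.756), and Nr4a1, a nuclear receptor gene, fell by 0.28 in both arms (limma adjusted p = 0.0126 in adiponectin and 0.0135 in control). These courses lost their calls without the 120 h pair, with an adjusted p of up to 0.358 over any 1 pair left out, for C1qc in control.

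Other cell types changed over the same days. The mean over 9 neutrophil markers was 12.95 at 4 h and 9.95 at 120 h in adiponectin and 13.24 and 9.74 in control, and 5 of 9 fell with time in adiponectin and 6 of 9 in control. The mean over 5 B lineage markers was 10.72 at 4 h and 9.19 at 120 h in adiponectin and 10.65 and 8.93 in control, with 1 of 5 called lower with time in each arm. Osteoclast markers went the other way, with means of 9.73 at 4 h and 11.85 at 120 h in adiponectin and 9.75 and 12.30 in control, and 2 of 6 rose with time in adiponectin and 5 of 6 in control. The osteoclast arms lay farthest apart at 72 h, with means of 10.82 in adiponectin and 12.15 in control and a median difference of -1.23. Of 5 stromal markers, 4 rose with time in adiponectin and 2 in control. The mean over 5 T and NK cell markers was 7.91 at 4 h and 8.08 at 120 h in adiponectin and 8.10 and 7.22 in control. The drop of that control mean came mainly from Nkg7. From 4 to 120 h the control level changed by -3.955 for Nkg7, -1.034 for Cd3d, 0.061 for Cd3e, -0.024 for Cd3g and 0.55 for Ncr1. Of these 5, 1 rose with time and 0 fell in adiponectin, and 0 rose and 2 fell in control. Both of the 2 erythroid markers fell with time in each arm, and of 5 mast cell and basophil markers 2 fell in adiponectin and 1 in control. With adiponectin, 0 of 9 neutrophil, 0 of 5 B lineage and 0 of 5 T and NK cell markers passed in either direction, nor did any of 5 mast cell and basophil, 2 erythroid and 5 stromal markers. Of 7 dendritic markers 1 fell, Cd209a, and 1 of 6 osteoclast markers fell, the proton pump gene Atp6v0d2 (-0.91 ± 0.43; limma adjusted p = 0.00346). The mean over the 7 dendritic markers was 10.32 at 4 h and 9.34 at 120 h in adiponectin and 10.64 and 10.30 in control; with time 0 rose and 4 fell in adiponectin, and 1 rose and 0 fell in control. At 120 h, where the Ms4a4c difference was largest, the median difference was -0.99 for the dendritic, -0.47 for the osteoclast and 0.84 for the T and NK cell markers, and between -0.20 and 0.32 for the other lists of markers. The dendritic markers were uneven at 120 h, with -0.11 for Flt3 and -0.238 for Zbtb46, both below the median level of all genes. The others were at -2.225 (Cd209a), -1.195 (Itgax), -1.122 (H2-Aa), -0.989 (H2-Ab1) and -0.875 (Cd74). The part of these shifts in the Ms4a courses was not tested.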

How the data were processed

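Labelled RNA from the 10 cultures was hybridised to Affymetrix whole-transcript arrays. The deposited values are log2 values per probe set and array, and the submitters' processing notes name RMA, Affymetrix Expression Console and Partek without versions or order. RMA corrects background, quantile normalizes and summarises probes, so a shift shared by most genes would be removed. Array medians over all genes lay between 8.27 and 8.48. Of 35556 probe sets, 21789 had 1 gene symbol in the platform table, and the highest-mean probe set stood for each of 19938 genes. All 5 genes described passed a filter at the median level, which was applied as an alternative.

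The fits used limma 3.58.1 in R 4.3.3 over all genes (lmFit and eBayes, two-sided), with p adjusted by Benjamini-Hochberg and a threshold of 0.05. For the adiponectin effect, time was a block, so that arrays were paired by the time in their labels, which leaves 4 residual degrees of freedom. In each fit eBayes draws a gene's spread toward that of all genes and so adds to its residual degrees of freedom. Slopes used log2 hours per arm with 6 residual degrees of freedom, and treat both arrays of a time as independent. The fits were tested on simulated data with known changes and independent noise, where 5.69% to 8.02% of the calls were false at the threshold of 0.05. Genes, lists and motifs were chosen with earlier results of these data known. Named beside the 5 genes are called members of each list, those with the largest mean differences, markers of each cell type, and, for their known roles and after their values were seen, Ms4a1, Ms4a2 and the macrophage markers, besides the 3 genes most like each member. Ms4a19 was not in the list of relatives. Coordinates are those of RefSeq windows (GRCm38.p6); the build behind the probe sets is not given in the sources used here.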

Additional observations from a re-analysis of the deposited data

Results flagged for a closer look

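The Ms4a6b difference at 4 h, 0.26, lay apart from the other 4 times, at 1.17 to 1.37. Its gap to the nearest of them was 0.818 of the whole range, above Dixon's critical value of 0.71 for 5 values. The times are not replicates of each other. It was the 1 case among 15 sets of values (levels in each arm and differences of the 5 genes), where chance gives about 1 in 20.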

How the results depend on the processing

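The number of arrays limits every value, and no background signal was used here. All 5 genes kept the sign of the adiponectin effect under each of 12 alternatives. The count of the 5 called higher was 2 to 4 with 1 pair left out and 0 with no replicate block, that is without pairing by time, where 146 genes over all were called higher, against 408 with the block; Ms4a4c also missed the threshold with an intensity trend and robust prior (adjusted p = 0.0946), Ms4a6c with log2 hours instead of the time block (0.0633) and Ms4a7 with arrays centred on their median (0.0812). The cause was not tested. For the adiponectin course, 2 genes in place of 1 were called after repeated quantile normalization, with arrays centred or with genes at or above the median level, the second being Ms4a6b, and 0 to 2 with 1 pair left out. For the control course, 0 to 1 rose and 0 to 1 fell with 1 pair left out, and over all genes 23 to 868 rose in the adiponectin arm (main 827) and 5 to 1476 in the control arm (main 925). Some estimates that never passed changed sign. For the treatment by time term, those with 1 pair left out ran from -0.004 to 0.243 for Ms4a6b, -0.064 to 0.03 for Ms4a6c and -0.14 to 0.045 for Ms4a6d, which was 0.007 with arrays centred. For the adiponectin course they ran from -0.235 to 0.123 for Ms4a4c (0.006 after quantile normalization), -0.036 to 0.076 for Ms4a6c and -0.06 to 0.096 for Ms4a6d. Counts at 1.5-fold moved under neither scaling.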
